A study of Mus musculus with 18 samples.

Results

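The genes described here encode the enzymes that make and use glutathione, reduce peroxides and superoxide, and conjugate reactive or foreign molecules. They were chosen by symbol from the array annotation: the glutathione transferases (Gsta, Gstk, Gstm, Gsto, Gstp, Gstt, Gstz and Mgst), the glutathione peroxidases (Gpx), the peroxiredoxins (Prdx), the thioredoxin reductases (Txnrd), the Ugt1a UDP-glucuronosyltransferases, and Nqo1, Hmox1, Gclc, Gclm, Gss, Srxn1, Cat, Sod1 and Sod2. Gsr, the gene of glutathione reductase, was also sought and was not found in the value table under that symbol. The families are covered only as far as the value table holds their genes, so the peroxiredoxins are Prdx1 to Prdx4. No measured level entered that choice, although the set was proposed with earlier results of these data known. It holds 48 of the 13032 genes that carry a single symbol in the value table, and each gene is read by its probe with the highest mean over all arrays. Of the 48 members, 45 were detected (p-value under 0.01) on 3 or more of the 18 arrays and were tested, and 35 were detected on all 18. Gpx6, Gstt4 and Ugt1a7c were not tested, since their probes were detected on at most 2 arrays. Their group means lay between 6.71 and 6.86 on the log2 scale.

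RNA was measured on Illumina bead arrays in C2C12 cells, a mouse myoblast line that is used as a model of muscle differentiation in culture. STAC3 RNAi cells were transfected with an RNAi against STAC3, a protein of the excitation-contraction coupling machinery of skeletal muscle, and control cells with a control RNAi of high GC content. Cells at day 0 were in growth medium with 20% serum, 24 h after treatment, and cells at day 1 were in differentiation medium with 2% serum, 48 h after treatment. There were 4 STAC3 RNAi samples and 3 control samples at day 0 (control replicates 2, 3 and 4), and 4 STAC3 RNAi samples and 4 control samples at day 1. The model has limits: there is 1 cell line and 1 RNAi, its effect on other transcripts was not tested, and medium and time after treatment change together between the days. The labels do not say whether replicates came from separate transfections, so the p-values measure the spread between these samples, which may be technical. In such bulk RNA, fewer cells of a type and less RNA per cell cannot be told apart.

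Glutathione is a small thiol peptide made by the ligase of Gclc and Gclm and then by Gss. Transferases couple it to reactive compounds, peroxidases spend it on peroxides, and the peroxiredoxins do similar work with thioredoxin, which the thioredoxin reductases recharge. Ugt1a enzymes add glucuronic acid instead, and are best known from liver and gut. Many of these genes are textbook targets of NRF2, a transcription factor that responds to oxidants and electrophiles, and several are also targets of AHR, which responds to aromatic compounds. In muscle the peroxide enzymes are known for handling oxidants from mitochondria and contraction.

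The promoters of 4 members that the results turn on are shown first: Ugt1a10 and Mgst1, with the largest rises at day 1, Srxn1, with the largest fall, and Prdx3, which was lower on both days. Those of Gclm and Gstm5 are added because they hold the element that NRF2 binds. Capitals mark matches on either strand to that element (searched as TGACNNNGC) or to the element that AHR binds (searched as GCGTG). All are from RefSeq on GRCm38.p6 and are written 5' to 3' on the strand of the gene. The first 4 are the 250 bases before the start of transcription. For Mgst1 they lie at chr6:138140277-138140526 on the plus strand, for Ugt1a10 at chr1:88055161-88055410 on the plus strand, for Srxn1 at chr2:152105274-152105523 on the plus strand and for Prdx3 at chr19:60874539-60874788 on the minus strand. The Gclm stretch lies at chr3:122245393-122245461 and the Gstm5 stretch at chr3:107895782-107895850, both on the plus strand, with 30 bases on each side of the element.
Mgst1: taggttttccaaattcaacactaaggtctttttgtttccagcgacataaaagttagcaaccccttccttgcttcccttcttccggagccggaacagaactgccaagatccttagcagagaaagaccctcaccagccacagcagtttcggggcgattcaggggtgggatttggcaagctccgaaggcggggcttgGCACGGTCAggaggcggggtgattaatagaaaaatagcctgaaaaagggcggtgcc
Ugt1a10: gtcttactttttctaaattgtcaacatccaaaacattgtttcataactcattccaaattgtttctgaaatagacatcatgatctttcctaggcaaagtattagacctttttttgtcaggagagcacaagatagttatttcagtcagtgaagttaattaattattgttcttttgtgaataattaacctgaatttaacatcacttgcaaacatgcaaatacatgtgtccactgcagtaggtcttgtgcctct
Srxn1: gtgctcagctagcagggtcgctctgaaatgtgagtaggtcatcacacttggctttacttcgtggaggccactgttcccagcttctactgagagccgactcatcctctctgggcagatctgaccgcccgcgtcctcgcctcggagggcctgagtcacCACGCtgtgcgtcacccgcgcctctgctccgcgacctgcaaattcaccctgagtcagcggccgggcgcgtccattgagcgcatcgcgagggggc
Prdx3: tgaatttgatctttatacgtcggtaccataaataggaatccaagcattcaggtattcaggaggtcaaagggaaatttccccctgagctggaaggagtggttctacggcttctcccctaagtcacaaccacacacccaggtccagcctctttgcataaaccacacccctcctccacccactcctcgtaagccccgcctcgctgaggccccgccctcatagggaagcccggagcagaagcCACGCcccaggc
Gclm: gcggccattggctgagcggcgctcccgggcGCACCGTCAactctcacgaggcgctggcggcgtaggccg
Gstm5: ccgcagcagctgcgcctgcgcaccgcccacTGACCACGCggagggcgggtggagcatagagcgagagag
The NRF2 element began 56 bases before the start in Mgst1, 134 bases before it in Gclm and 42 bases before it in Gstm5. In Gstm5 its last bases overlap an AHR element. The table gives a second promoter for Mgst1, with no match. Where the Ugt1a10 probes lie was not analysed, so whether the promoter shown belongs to the transcripts they read is not known. Promoters of 250 bases before to 50 bases after the start were found for 43 of the 48 members, 55 promoters in all. The NRF2 element was in 9 of the 55 (16.4%), against 12.4% of the 32851 promoters of the table, and the AHR element was in 23 (41.8%), against 32.4%. The members with an NRF2 element were Gclm, Gsta3, Gstm5, Gstm7, Mgst1, Prdx1, Sod1, Srxn1 and Txnrd1, and in Srxn1 it lay 28 bases after the start. A match is a description of the letters in these windows and no evidence of binding. Elements outside these windows were not searched, so a member without a match may hold one further away.

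Stac3 itself was lower in STAC3 RNAi cells. At day 1 it had log2 values of 6.74, 6.74, 6.70 and 6.81 in STAC3 RNAi cells, against 7.53, 7.69, 7.52 and 7.97 in control cells (log2 fold change -0.93 ± 0.081 SE, adjusted p = 6.03e-07). At day 0 it had 6.70, 6.68, 6.79 and 6.75 in STAC3 RNAi cells, against 7.04, 6.98 and 7.15 in control cells (-0.33 ± 0.088, adjusted p = 0.0214). Every STAC3 RNAi sample lay under 6.9, the value at which probes reach detection on this scale, so the fold is a bound of at least 1.72-fold lower at day 1. Samples were assigned to groups as the value table records them. A second table of unnormalised intensities names 12 of its 18 columns for other arrays, and which table is right is not settled by the sources. By the value table's names each of the 3 repeat arrays was most like its partner of all others, while by the second table's names the partner had rank 13, 5 and 10. By the second table's names Stac3 intensity at day 1 also overlapped, at 48.5 to 171.3 in STAC3 RNAi arrays and 83.4 to 211.9 in control arrays. With those names no member passed at day 1, so every result here rests on the value table's assignment. Of 9 myoblast markers, 8 were in the value table and 7 were detected. All 7 were lower in STAC3 RNAi cells at day 1, against 17.8% of all genes tested. The mean level of the list was 9.49 to 9.82 in STAC3 RNAi samples and 10.27 to 10.68 in control samples on that day. Of 5 fibroblast markers, 4 were in the value table and all 4 were detected. Their mean levels at day 1 were 8.69 to 9.11 in STAC3 RNAi samples and 8.08 to 8.55 in control samples. Pdgfra and Dcn rose, where 19.9% of all genes tested did. Of 4 smooth muscle markers, 2 were in the value table, both detected, and Acta2 rose at day 1. No macrophage or hepatocyte marker was detected on 3 or more arrays, but only 2 of 4 and 1 of 4 of them were in the value table. Of 5 adipocyte markers 3 were in it and 2 were detected, and of 4 bone cell markers 3 and 1. So few markers cannot show that a cell type was absent. These levels move with the results below, and their part in them was not tested.

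At day 1 members changed in both directions. Transcripts of Ugt1a (3 of 3 measured) and of the microsomal transferases Mgst1 and Mgst2 (2 of 3) were higher in STAC3 RNAi cells, by 1.84-fold to 4.00-fold. Of 19 measured soluble transferases, 7 fell and 2 rose, and the mitochondrial peroxiredoxin Prdx3, the sulfiredoxin Srxn1, Sod2, Gpx3 and Gpx4 fell. In all, 9 members rose and 12 fell (limma with Benjamini-Hochberg adjustment over 18408 probes, adjusted p below 0.05), 46.7% of the 45 members, against 37.8% of the 10134 genes tested. The share that rose, 20.0%, was near that of all genes, 19.9%. The share that fell was 26.7%, against 17.8% of all genes. The samples of the groups did not overlap for 7 members that were higher (15.6%, against 17.0% of all genes) and 10 that were lower (22.2%, against 14.8%). The median absolute log2 fold change was 0.26 among members and 0.15 among all genes. Of the members with a promoter in the table, the AHR element was found in 0 of the 7 that rose, 7 of the 12 that fell and 11 of the 21 that did not pass, and the NRF2 element in 1, 2 and 6 of them. Over all 43 members with a promoter the shares were 41.9% and 20.9%, and over all promoters 32.4% and 12.4%. A member counts if any of its promoters matches, and some have several. The Ugt1a genes among those that rose may be readings of 1 locus. These small counts were not tested.

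**Figure D1:**
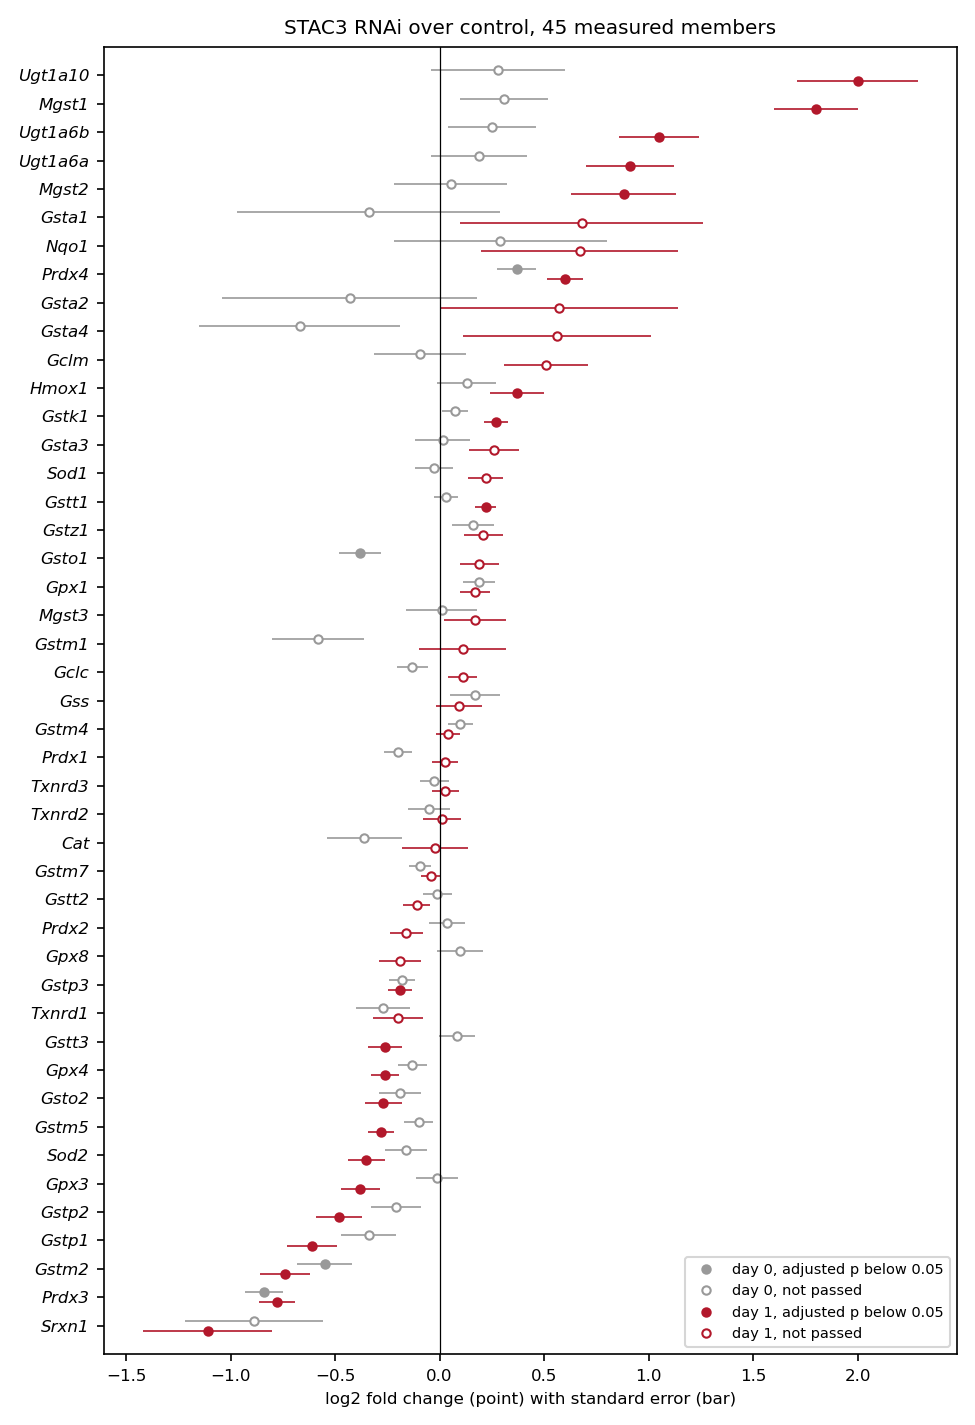
Log2 fold change of STAC3 RNAi over control (horizontal axis) for the 45 measured members (rows), with day 1 in red, day 0 in grey and bars of 1 standard error; filled points have an adjusted p below 0.05. Ugt1a10 and Mgst1 lie at 2.00 and 1.80 at day 1, Srxn1 at -1.11, and Prdx3 at -0.78 at day 1 and -0.84 at day 0.

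The microsomal glutathione transferases are membrane enzymes that act on lipid peroxides and reactive compounds. Mgst1 had log2 values of 9.67, 9.42, 8.70 and 8.65 in STAC3 RNAi cells at day 1, against 7.76, 7.02, 7.31 and 7.15 in control cells. All 4 STAC3 RNAi samples lay above all 4 control samples, by 0.89 or more between the nearest pair. The log2 fold change was 1.80 ± 0.20 (SE, adjusted p = 5.8e-06), a 3.49-fold rise. Within the 12 arrays of higher median intensity it was 2.12 (adjusted p = 7.03e-06), and within the 6 arrays of lower intensity it was 1.60 (adjusted p = 0.0258). A second, dimmer probe of Mgst1 gave 1.32 (adjusted p = 8.28e-05). Mgst2, which also takes part in leukotriene synthesis, had 9.24, 9.10, 8.51 and 7.89 in STAC3 RNAi cells, against 8.15, 7.61, 7.95 and 7.49 in control cells. The lowest STAC3 RNAi sample, replicate 4, fell among the control samples. The log2 fold change was 0.88 ± 0.25 (adjusted p = 0.0128). Mgst3, the brightest of the family, averaged 11.43 ± 0.25 in STAC3 RNAi cells and 11.26 ± 0.25 in control cells (SD, n = 4 each) and did not pass the test (0.17 ± 0.15, adjusted p = 0.463).

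The Ugt1a enzymes share their closing exons and differ in the opening one, so a probe in the shared part reads the whole locus. Where the probes lie was not analysed here, and the 3 members may be readings of 1 locus. Ugt1a10 had 10.02, 10.13, 9.26 and 8.29 in STAC3 RNAi cells at day 1, against 7.68, 7.18, 7.70 and 7.15 in control cells. The groups did not overlap, although the STAC3 RNAi samples spanned 1.84 log2 units. The log2 fold change was 2.00 ± 0.29 (adjusted p = 8.26e-05), a 4.00-fold difference and the largest of the 45 members. Ugt1a6b had 8.55, 8.42, 7.56 and 7.42 in STAC3 RNAi cells, against 7.05, 6.88, 7.04 and 6.80 in control cells (1.05 ± 0.19, adjusted p = 0.000566). Ugt1a6a had 8.32, 8.41, 7.34 and 7.24 in STAC3 RNAi cells, against 7.0, 6.82, 7.03 and 6.81 in control cells (0.91 ± 0.21, adjusted p = 0.00337). For both, replicates 1 and 2 of the STAC3 RNAi group were well above replicates 3 and 4, and 2 of the 4 control samples lay under 6.9, where fold changes are compressed. The other 2 probes of Ugt1a10 gave 1.90 and 1.25, both passing.

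**Figure D2:**
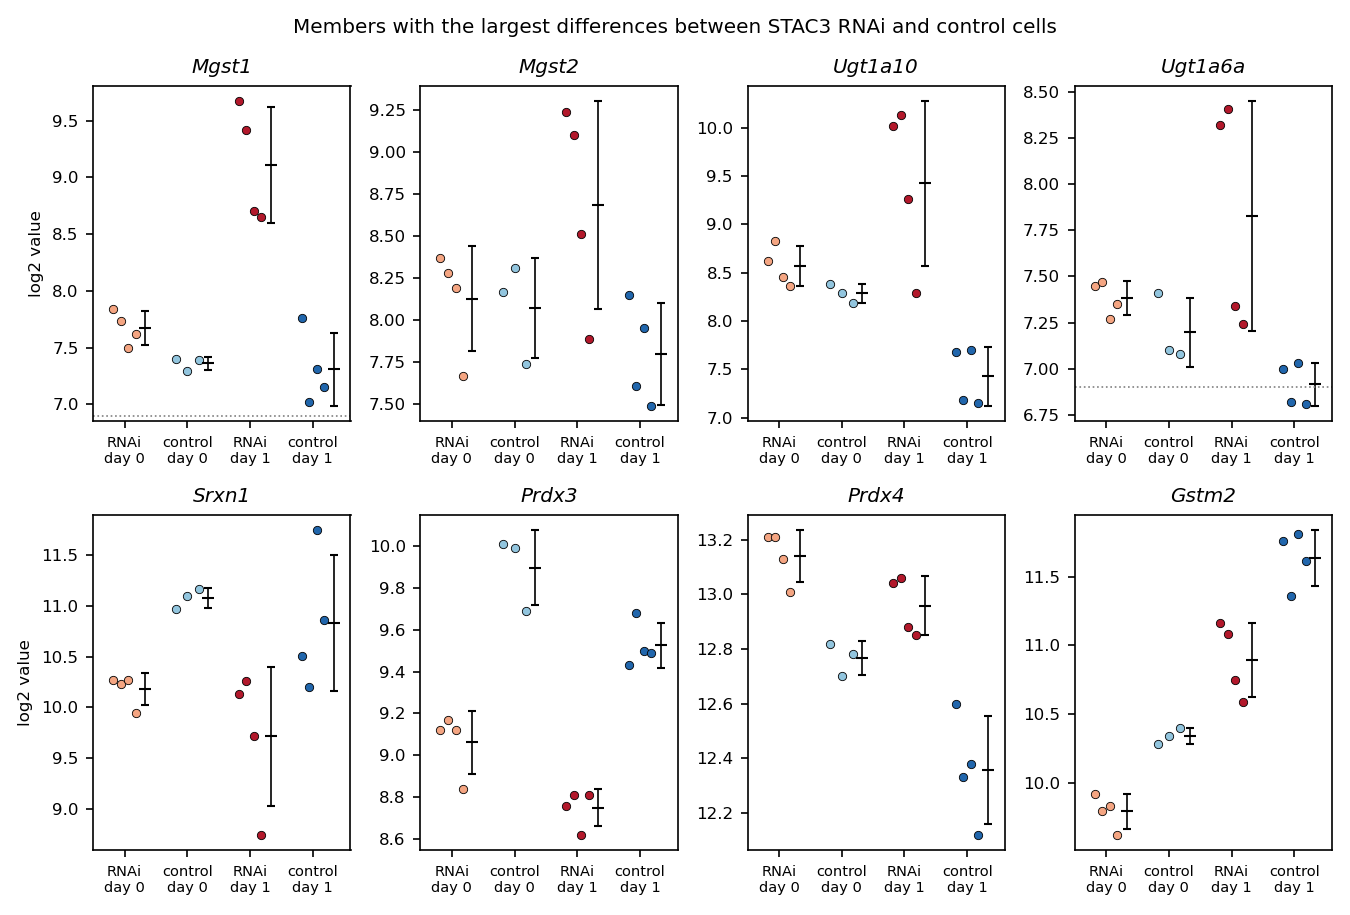
Log2 value (vertical axis, a separate scale per panel) of 8 members in every sample, with STAC3 RNAi left of control at day 0 and then at day 1; each point is 1 sample, the bar is the mean with its SD, and the dotted line, where drawn, is 6.9. Mgst1 and the Ugt1a members rise in STAC3 RNAi cells at day 1, Prdx3 and Gstm2 lie below control on both days, and Srxn1 at day 1 ranges over 1.51 in STAC3 RNAi cells and 1.54 in control cells.

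The peroxiredoxins reduce peroxides at a cysteine, and sulfiredoxin repairs that cysteine when it is over-oxidised. Prdx3, the mitochondrial member, had 8.76, 8.81, 8.62 and 8.81 in STAC3 RNAi cells at day 1, against 9.43, 9.68, 9.5 and 9.49 in control cells. These groups were tight and lay 0.62 apart at their nearest. Prdx3 fell by 0.78 on the log2 scale (SE 0.086, adjusted p = 6.13e-06), which is 1.72-fold lower. Prdx4, the peroxiredoxin of the endoplasmic reticulum, moved the other way, with 13.04, 13.06, 12.88 and 12.85 in STAC3 RNAi cells, against 12.60, 12.33, 12.38 and 12.12 in control cells. All STAC3 RNAi samples were above all control samples (0.60 ± 0.086, adjusted p = 7.13e-05). Srxn1, the sulfiredoxin gene, had 10.13, 10.26, 9.72 and 8.75 in STAC3 RNAi cells, against 10.51, 10.20, 11.74 and 10.86 in control cells. The groups overlapped at 1 sample each, since STAC3 RNAi replicate 2 was above control replicate 2. Srxn1 fell by 1.11 (SE 0.31, adjusted p = 0.0107), the largest fall of the set, and its other 2 probes passed too, at -0.62 and -1.03. Fitted on the day 1 samples alone it did not pass (adjusted p = 0.0581). The cytosolic Prdx1 and Prdx2 did not pass, at 0.028 ± 0.062 and -0.16 ± 0.079.

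The soluble glutathione transferases are dimers with broad and overlapping substrates. Near-identical copies within the pi, mu and alpha classes make it uncertain which copy a probe reads. Gstp1, a major transferase of many tissues, had 13.57, 13.39, 13.20 and 12.86 in STAC3 RNAi cells at day 1, against 13.95, 13.73, 14.07 and 13.72 in control cells. No sample of the groups overlapped (-0.61 ± 0.12, adjusted p = 0.00126). Gstp2 had 8.48, 8.20, 8.63 and 8.75 in STAC3 RNAi cells, against 9.24, 8.81, 8.93 and 9.02 in control cells (-0.48 ± 0.11, adjusted p = 0.00281). Gstp3, at the edge of detection, had 6.90, 6.88, 6.80 and 6.86 in STAC3 RNAi cells, against 6.94, 6.95, 7.14 and 7.14 in control cells (-0.19 ± 0.058, adjusted p = 0.0209). The pi class was lower in every STAC3 RNAi sample, but the call of Gstp3 was lost without control day 1 replicate 3 or 4 or STAC3 RNAi day 1 replicate 3 (adjusted p of 0.0543 to 0.0725).

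In the mu class, Gstm2, a form known to be abundant in muscle, had 11.16, 11.08, 10.75 and 10.59 in STAC3 RNAi cells at day 1, against 11.76, 11.36, 11.81 and 11.61 in control cells. All STAC3 RNAi samples were below all control samples (-0.74 ± 0.12, adjusted p = 0.000207), and the other 2 probes of the gene gave -0.72 and -0.77. Gstm5 had 10.10, 9.98, 9.91 and 10.05 in STAC3 RNAi cells, against 10.44, 10.20, 10.22 and 10.32 in control cells (-0.28 ± 0.064, adjusted p = 0.00295). Gstm1 did not follow them, at 10.51 ± 0.60 in STAC3 RNAi cells and 10.40 ± 0.18 in control cells (SD, n = 4 each; 0.11 ± 0.21, adjusted p = 0.743). Gstm4 and Gstm7 lay near the detection level and did not pass.

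The remaining soluble transferases that passed at day 1 changed little. Gstk1, the mitochondrial and peroxisomal form, had 7.57, 7.48, 7.45 and 7.35 in STAC3 RNAi cells, against 7.17, 7.26, 7.24 and 7.10 in control cells (0.27 ± 0.058, adjusted p = 0.002). Gstt1 had 7.02, 7.06, 7.07 and 7.08 in STAC3 RNAi cells, against 6.95, 6.73, 6.88 and 6.78 in control cells (0.22 ± 0.052, adjusted p = 0.00379). Neither gene's groups overlapped, and 3 of the 4 control samples of Gstt1 lay under 6.9. Gsto2, which can reduce dehydroascorbate, had 7.71, 7.53, 7.67 and 7.38 in STAC3 RNAi cells, against 8.0, 7.72, 7.86 and 7.78 in control cells (-0.27 ± 0.089, adjusted p = 0.0315). Gstt3 had 7.51, 7.49, 7.52 and 7.53 in STAC3 RNAi cells, against 7.75, 7.90, 7.64 and 7.79 in control cells (-0.26 ± 0.082, adjusted p = 0.0248). Both were below control in every sample, and both calls depended on single samples. The other probe of Gsto2 did not pass (-0.15, adjusted p = 0.189). Gsto2 was lost without control day 1 replicate 1 or 3 or STAC3 RNAi day 1 replicate 2 or 4 (adjusted p of 0.0645 to 0.0963). Gstt3 was lost without control day 1 replicate 2 or 4 or STAC3 RNAi day 1 replicate 2 (0.0542 to 0.0793).

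Among the glutathione peroxidases, Gpx4, the selenoenzyme that reduces lipid hydroperoxides in membranes, had 13.31, 13.37, 13.47 and 13.18 in STAC3 RNAi cells at day 1, against 13.57, 13.57, 13.69 and 13.56 in control cells. The fall was small but without overlap (-0.26 ± 0.066, adjusted p = 0.0059), and its other 2 probes gave -0.16 and -0.51, both passing. Gpx3, the secreted form, had 8.38, 8.36, 8.5 and 8.83 in STAC3 RNAi cells, against 9.0, 8.88, 8.74 and 8.98 in control cells (-0.38 ± 0.093, adjusted p = 0.00498). Its groups overlapped at STAC3 RNAi replicate 4. Gpx1, the main cytosolic form, averaged 13.58 ± 0.09 in STAC3 RNAi cells and 13.42 ± 0.10 in control cells (SD, n = 4 each) and did not pass (adjusted p = 0.0878), nor did Gpx8, a form of the endoplasmic reticulum (-0.19 ± 0.10, adjusted p = 0.177).

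Sod2, the manganese superoxide dismutase of mitochondria, had 11.16, 11.34, 11.02 and 11.30 in STAC3 RNAi cells at day 1, against 11.35, 11.71, 11.45 and 11.71 in control cells. The groups lay 0.01 apart at their nearest, at STAC3 RNAi replicate 2 and control replicate 1 (-0.35 ± 0.088, adjusted p = 0.00613). The cytosolic Sod1 and the peroxisomal catalase gene Cat did not pass, at 0.22 ± 0.083 and -0.022 ± 0.16, although Sod1 did with the array set or the replicate number as a block. Hmox1, which degrades haem, had 8.65, 8.43, 7.96 and 7.93 in STAC3 RNAi cells, against 8.03, 7.82, 7.70 and 7.95 in control cells. Its groups overlapped, and the call (0.37 ± 0.13, adjusted p = 0.0399) was lost without any 1 of 5 samples. These were control day 1 replicates 2, 3 and 4 and STAC3 RNAi day 1 replicates 1 and 2 (adjusted p of 0.0538 to 0.129). None of the glutathione synthesis genes (Gclc, Gclm and Gss) or thioredoxin reductases (Txnrd1, Txnrd2 and Txnrd3) passed, with log2 fold changes of -0.20 to 0.51. Txnrd1 passed without control day 1 replicate 1, its lowest control sample (-0.35, adjusted p = 0.00675), and within the 12 arrays of higher median intensity.

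At day 0, in growth medium, 4 members passed, 8.89% of the 45 against 14.7% of all genes tested. Prdx4 was higher (1 member, against 8.06% of all genes) and Prdx3, Gstm2 and Gsto1 were lower (3 members, against 6.64%). The samples of the groups did not overlap for 6 members that were higher in STAC3 RNAi cells (13.3%, against 15.3% of all genes) and for 12 that were lower (26.7%, against 14.1%). Prdx3 was already low, with 9.12, 9.17, 9.12 and 8.84 in STAC3 RNAi cells, against 10.01, 9.99 and 9.69 in control cells (-0.84 ± 0.093, adjusted p = 3.29e-05). Its fall at day 0 was as large as that at day 1, and the difference between the days was 0.057 ± 0.13 (adjusted p = 0.864). Gstm2 had 9.92, 9.79, 9.83 and 9.62 in STAC3 RNAi cells, against 10.28, 10.34 and 10.40 in control cells (-0.55 ± 0.13, adjusted p = 0.0106). Both genes were thus below control in every STAC3 RNAi sample of both days.

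Prdx4 was higher at day 0 as well, with 13.21, 13.21, 13.13 and 13.01 in STAC3 RNAi cells, against 12.82, 12.70 and 12.78 in control cells (0.37 ± 0.093, adjusted p = 0.016). That call was lost without control day 0 replicate 3 (0.34, adjusted p = 0.0723). Gsto1, the omega-class transferase, had a log2 value of 12 in replicate 1 and of 12.18, 12.16 and 11.83 in replicates 2 to 4 of the STAC3 RNAi cells, against 12.44, 12.45 and 12.38 in control cells (-0.38 ± 0.10, adjusted p = 0.0218). All STAC3 RNAi samples were lower, and the call was lost without any control sample of day 0 or without STAC3 RNAi day 0 replicate 1 or 4 (adjusted p of 0.0509 to 0.0741). Srxn1 had 10.27, 10.23, 10.27 and 9.95 in STAC3 RNAi cells, against 10.97, 11.09 and 11.16 in control cells. The groups were 0.70 apart at their nearest, but Srxn1 did not pass in the fit over all 4 groups (-0.89 ± 0.33, adjusted p = 0.0962). Fitted on the day 0 samples alone it passed (adjusted p = 0.000158), and so did 13 members in all. The same kind of fit on the day 1 samples alone gave 17 members, without Srxn1, Gsto2, Gstp3 and Hmox1. The shares of all genes in these fits are not given, so the counts cannot be set against the shares of the main fit.

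The effect of STAC3 RNAi differed between the days for 3 members, 6.67% of the 45 against 5.48% of all genes tested. All 3 differences were positive, against 2.77% of all genes, and no member had a negative one that passed, against 2.70%. For Mgst1 the difference of the day 1 and day 0 effects was 1.49 ± 0.29 (adjusted p = 0.0089), with an effect of 0.31 ± 0.21 at day 0. It passed without each sample in turn, but its dimmer probe did not pass (1.03, adjusted p = 0.0501). For Ugt1a10 the difference was 1.72 ± 0.43 (adjusted p = 0.0332), with 0.28 ± 0.32 at day 0. This call was lost without any 1 of 10 of the 15 samples (adjusted p of 0.0558 to 0.0837): control day 0 replicates 2, 3 and 4, control day 1 replicates 2 and 4, STAC3 RNAi day 0 replicates 1, 3 and 4, and STAC3 RNAi day 1 replicates 1 and 2. Gsto1 was the third (0.57 ± 0.14, adjusted p = 0.0279), with 0.19 ± 0.093 at day 1. It was lost without control day 0 replicate 2 or 3, STAC3 RNAi day 0 replicate 1, control day 1 replicate 2 or STAC3 RNAi day 1 replicate 2 (adjusted p of 0.0548 to 0.0747). Without STAC3 RNAi day 1 replicate 4 the count was 9, with Gclm, Gpx3, Gsta4, Gstm1, Mgst2 and Ugt1a6b added. The share of all genes without that sample is not given.

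Between the days, many members changed in both kinds of cells. In STAC3 RNAi cells 17 members were higher at day 1 than at day 0 and 4 were lower (46.7% of members, against 45.4% of all genes). Those higher were 37.8% of members, against 24.2% of all genes, and those lower 8.89%, against 21.2%. In control cells 12 were higher and 9 lower (46.7%, against 39.9%), which is 26.7% and 20.0% of members, against 20.7% and 19.2% of all genes. With the replicate number as a block the control count was 24, with Gsta1, Gsta2 and Mgst3 added, and the share of all genes is not given. These comparisons share their samples with those above, so only the values are set side by side.

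**Figure D3:**
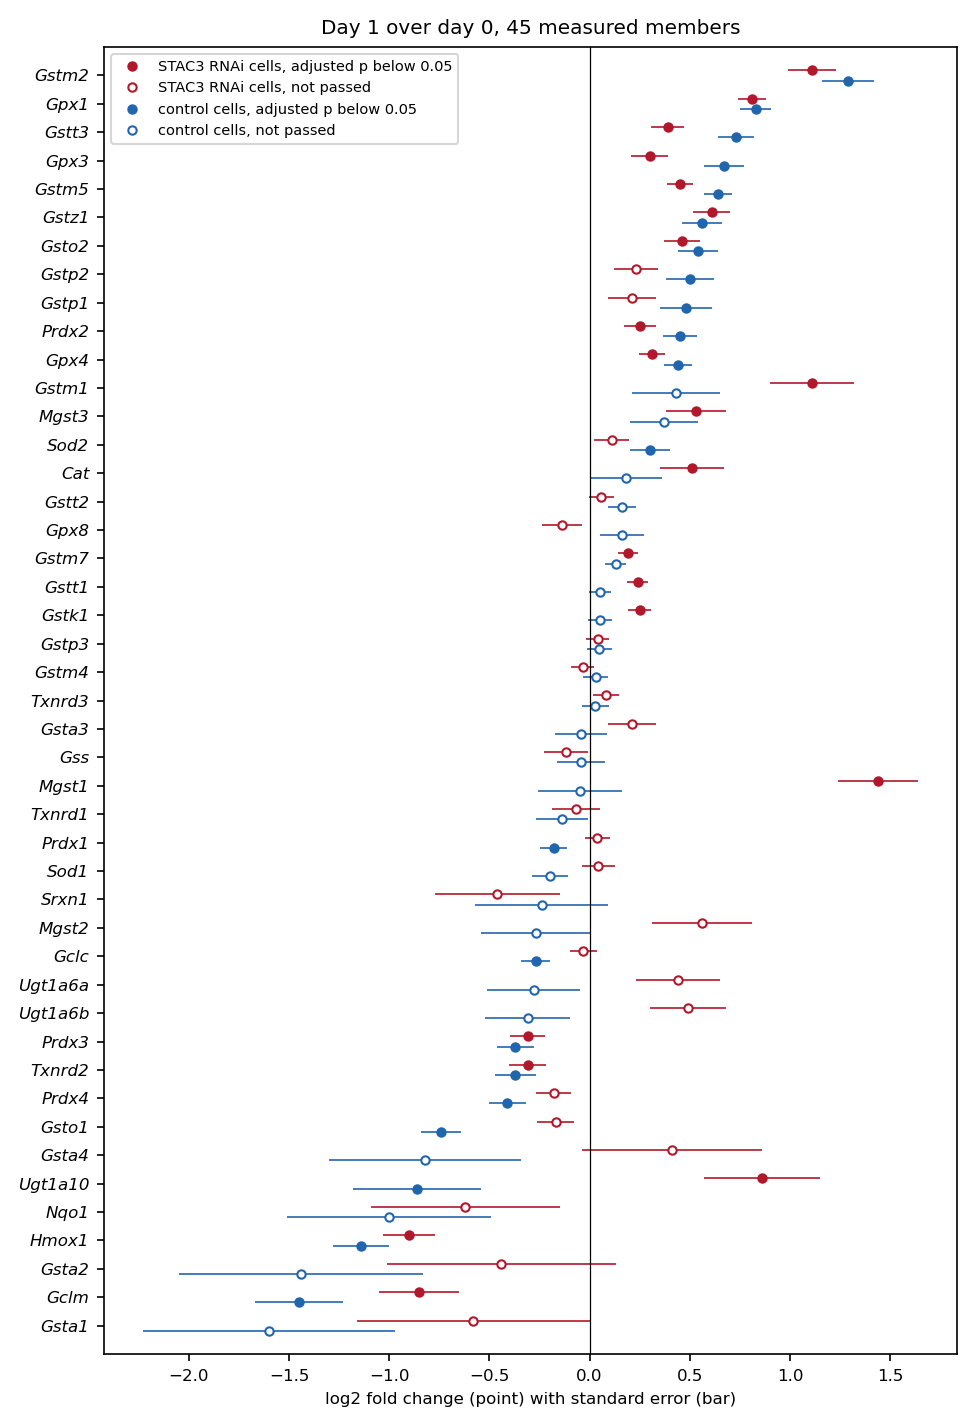
Log2 fold change of day 1 over day 0 (horizontal axis) for the 45 measured members (rows), in STAC3 RNAi cells (red) and control cells (blue), with bars of 1 standard error; filled points have an adjusted p below 0.05. Gstm2 and Gpx1 rise and Hmox1 and Gclm fall in both, while Mgst1 lies at 1.44 in STAC3 RNAi cells and at -0.05 in control cells.

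Gstm2 averaged 10.90 ± 0.27 at day 1 and 9.79 ± 0.13 at day 0 in STAC3 RNAi cells (SD, n = 4 each), a log2 fold change of 1.11 ± 0.12 (adjusted p = 2.03e-06). In control cells, where its rise was the largest of the 45 members, it averaged 11.63 ± 0.20 at day 1 (n = 4) and 10.34 ± 0.06 at day 0 (n = 3; 1.29 ± 0.13, adjusted p = 1.36e-06). Gpx1 rose by nearly the same amount in both, 0.81 ± 0.071 in STAC3 RNAi cells and 0.83 ± 0.077 in control cells. Gpx3, Gpx4, Gstm5, Gsto2, Gstt3, Gstz1 (which also breaks down tyrosine metabolites) and Prdx2 rose in both as well.

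Falls in both kinds of cells were those of Hmox1, Gclm, Prdx3 and Txnrd2, the mitochondrial thioredoxin reductase. Hmox1 fell by 0.90 ± 0.13 in STAC3 RNAi cells and by 1.14 ± 0.14 in control cells. Gclm, the modifier subunit of the glutathione ligase, averaged 9.12 ± 0.47 at day 1 and 9.97 ± 0.32 at day 0 in STAC3 RNAi cells (SD, n = 4 each; -0.85 ± 0.20, adjusted p = 0.0028). In control cells it averaged 8.62 ± 0.26 at day 1 (n = 4) and 10.07 ± 0.06 at day 0 (n = 3; -1.45 ± 0.22, adjusted p = 6.7e-05). Gclc, the catalytic subunit, fell in control cells (-0.27 ± 0.074, adjusted p = 0.0104), where all 4 samples of day 1 lay under 6.9, so that the fall is a bound of at least 1.14-fold.

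Ugt1a10 passed in both kinds of cells with opposite signs. It rose in STAC3 RNAi cells (0.86 ± 0.29, adjusted p = 0.0274) and fell in control cells (-0.86 ± 0.32, adjusted p = 0.0442). At day 0 it had 8.62, 8.83, 8.46 and 8.36 in STAC3 RNAi cells and 8.38, 8.29 and 8.19 in control cells, so the groups overlapped there. Mgst1 rose in STAC3 RNAi cells (1.44 ± 0.20, adjusted p = 2.47e-05) and was at -0.05 ± 0.21 in control cells (adjusted p = 0.889). At day 0 it had 7.84, 7.73, 7.50 and 7.62 in STAC3 RNAi cells, against 7.40, 7.29 and 7.39 in control cells, without overlap. Over the 15 samples the members most like Mgst1 were Gstk1 (Pearson r = 0.90), Ugt1a6b (0.89) and Gstt1 (0.87). Those most like Ugt1a10 were Ugt1a6b (0.96), Ugt1a6a (0.94) and Mgst2 (0.90). These correlations run across the 4 groups and describe a shared order of levels only.

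Samples of the same group differed widely in these genes at day 1. Within the STAC3 RNAi group of day 1, 12 of the 45 members ranged over more than 1 log2 unit, against 1.08% of all genes tested. Within the control group of day 1, 5 members did so (Gsta1, Gsta2, Gsta4, Nqo1 and Srxn1), against 0.661% of all genes. At day 0 no member did so within the STAC3 RNAi group, and Gsta1 and Gsta2 did so within the control group, against 0.187% and 0.158% of all genes. This count was made after the values had been seen.

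Nqo1, a quinone reductase and a standard readout of NRF2 activity, had 10.95, 11.03, 9.42 and 8.43 in STAC3 RNAi cells at day 1, against 9.45, 8.47, 10.33 and 8.91 in control cells. Gsta1, an alpha-class transferase, had 10.50, 10.97, 9.06 and 7.46 in STAC3 RNAi cells, against 8.72, 8.31, 9.90 and 8.32 in control cells. Gsta4, which conjugates reactive lipid aldehydes, had 11.69, 11.89, 11.12 and 9.07 in STAC3 RNAi cells, against 10.60, 9.82, 11.09 and 10.03 in control cells. In all 3 genes replicates 1 and 2 of the STAC3 RNAi group were highest and replicate 4 lowest, and control replicate 3 was the highest of its group. None passed between the groups, at 0.67 ± 0.47, 0.68 ± 0.58 and 0.56 ± 0.45.

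**Figure D4:**
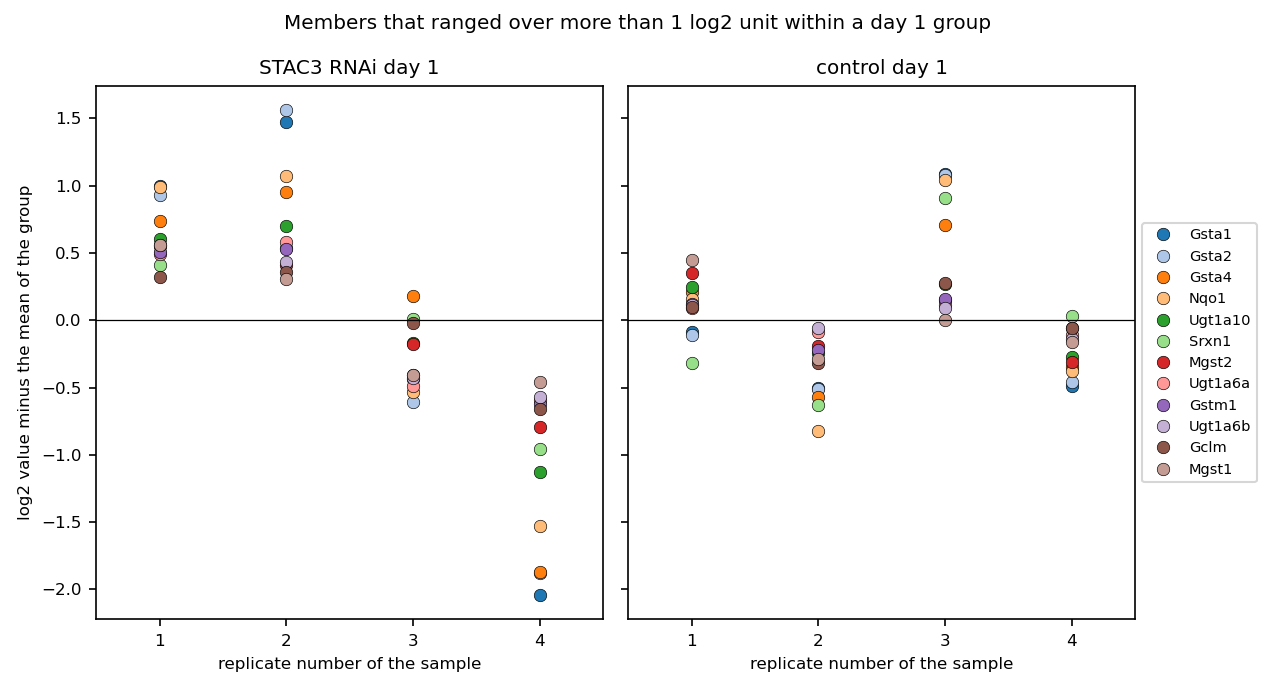
Log2 value minus the mean of the group (vertical axis) in each day 1 sample (horizontal axis, by replicate number) for the 12 members that ranged over more than 1 log2 unit within a day 1 group; each colour is a gene. In the STAC3 RNAi panel replicates 1 and 2 lie above the mean and replicate 4 below it for every gene shown, and in the control panel replicate 3 is highest for every gene but Mgst1, Mgst2 and Ugt1a6b.

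Control day 1 replicate 3 was the highest of its group, and STAC3 RNAi day 1 replicate 4 the lowest of its own, in 14 of the 45 members (31.1%), against 8.67% of the 10134 genes. These were Cat, Gclm, Gpx4, Gsta1, Gsta2, Gsta4, Gstm1, Gstm2, Gstp1, Nqo1, Sod1, Srxn1, Ugt1a10 and Ugt1a6a. The samples of this pattern were picked from the values of Nqo1, Gsta1 and Gsta4, which are in the count. It is thus a description of values already seen and no test. A repeat array gave like values for control day 1 replicate 3 (Nqo1 at 10.27 and 10.38 on its arrays) and for STAC3 RNAi day 1 replicate 1 (10.88 and 11.02). The median absolute difference between arrays of 1 sample was 0.10 to 0.11 over the members, and the largest was 0.53 to 0.58. On first arrays alone, Gsta2 ranged over 0.72 in the control group of day 0, not over 1. Outside the set, Aldh3a1, an aldehyde dehydrogenase, had 13.70, 13.82, 12.19 and 10.86 in STAC3 RNAi cells, against 11.57, 10.94, 12.63 and 10.76 in control cells. Aldh3a1 did not pass at day 1 (1.17 ± 0.58, adjusted p = 0.142) and is named only for the order of its samples. Myog, the regulator of myoblast differentiation, had 7.46, 7.71, 7.98 and 8.40 in STAC3 RNAi cells, against 8.99, 9.74, 8.79 and 9.92 in control cells. In each group its lowest sample was thus 1 of those with the highest Nqo1, and Myod1 and Cdh15 were lowest in the same samples. The other myoblast markers differed. Itga7 was lowest in STAC3 RNAi replicate 4 and control replicate 2, the samples with the lowest Nqo1. Des, Chrna1 and Mymk were each lowest in another sample than Myog in at least 1 group. The part of these markers in the results was not tested.

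Without STAC3 RNAi day 1 replicate 4, the members passing at day 1 numbered 27, with 15 higher and 12 lower in STAC3 RNAi cells. Gclm (0.73, adjusted p = 0.00253), Gsta1 (1.36, adjusted p = 0.0259), Gsta3, Gsta4 (1.18, adjusted p = 0.00164), Nqo1 (1.18, adjusted p = 0.0277) and Sod1 then passed as higher and Prdx2 as lower, and Gsto2 was lost. Without control day 1 replicate 3 the count was 21, with Gclm, Gsto1 and Sod1 gained and Gsto2, Gstp3 and Hmox1 lost. Whether Nqo1, Gsta1 and Gsta4 passed therefore depended on a single sample, while Gsta2 did not pass whichever sample was left out. The shares of all genes with a sample left out are not given, so these counts describe the members only.

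The other genes of these pathways were mixed. Of all genes tested, 19.9% rose and 17.8% fell in STAC3 RNAi cells at day 1. Of 9 measured genes of the NRF2 system, 3 rose in STAC3 RNAi cells at day 1 and none fell: Keap1, which holds NRF2 for degradation, its partner Cul3, and Mafg, with which NRF2 binds DNA, all by 0.21 to 0.22. Nfe2l2, the gene of NRF2, did not pass (-0.095 ± 0.11). Of 22 measured genes of thiol, NADPH and cystine supply, 1 rose and 5 fell. Glrx, a glutaredoxin, rose by 0.52 ± 0.10 (adjusted p = 0.00086), and mitochondrial thioredoxin (Txn2), Ggct, Chac1, Hagh and Glo1 fell. Chac1, which breaks down glutathione, was at -0.73 ± 0.15, Ggct at -0.30 ± 0.079, and Hagh, of the glyoxalase pathway, at -0.69 ± 0.14.

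Of 23 other detoxification genes, 6 rose and 5 fell at day 1, against 19.9% and 17.8% of all genes. Aldh2, the mitochondrial aldehyde dehydrogenase, averaged 13.01 ± 0.12 in STAC3 RNAi cells and 12.31 ± 0.13 in control cells (SD, n = 4 each; 0.70 ± 0.10, adjusted p = 6.24e-05). Cbr3, a carbonyl reductase, rose by 0.61 ± 0.14, and Arnt, the partner of AHR, by 0.36 ± 0.073. Cyb5r1 fell by 1.00 ± 0.13 (adjusted p = 2.52e-05), and Ugp2, which makes the precursor of the Ugt enzymes' sugar donor, by 0.79 ± 0.10 (adjusted p = 1.91e-05). Akr1b10 fell by 0.58 ± 0.077. Aldh3a2, Akr7a5 and Ahrr also rose and Cbr1 and Abcc5 also fell, by 0.15 to 0.30.

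Among 9 iron and haem genes, 3 rose and 2 fell at day 1, against 19.9% and 17.8% of all genes. Fth1, the heavy chain of ferritin, averaged 15.17 ± 0.04 in STAC3 RNAi cells and 14.73 ± 0.12 in control cells (SD, n = 4 each; 0.44 ± 0.067, adjusted p = 0.000126). Blvrb, a biliverdin reductase, rose by 0.83 ± 0.26, and the transferrin receptor gene Tfrc fell by 0.55 ± 0.15. Slc40a1, the iron exporter, was higher at day 1 (0.35 ± 0.12) and lower at day 0 (-0.79 ± 0.13), and Alas1 fell by 0.36 ± 0.12. Of 15 measured selenoprotein genes, 3 rose and 4 fell at day 1, against the same 19.9% and 17.8% of all genes. Selenon, mutated in a human congenital muscle disease, rose on both days (1.04 ± 0.13 at day 1 and 0.71 ± 0.14 at day 0), as did Selenoh (0.66 ± 0.11 and 0.42 ± 0.12), and Selenop rose at day 1 (0.65 ± 0.07). Selenos was lower on both days (-0.59 ± 0.085 at day 1 and -0.47 ± 0.091 at day 0), and Selenot, Selenom and Msrb1 fell at day 1.

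Of 12 other genes of superoxide and peroxide handling, 4 rose and 2 fell at day 1, and 1 rose and 4 fell at day 0. The shares of all genes were 19.9% and 17.8% at day 1, and 8.06% and 6.64% at day 0. Park7, a sensor of oxidation linked to human Parkinson disease, averaged 12.12 ± 0.08 in STAC3 RNAi cells and 12.81 ± 0.14 in control cells at day 1 (SD, n = 4 each; -0.70 ± 0.072, adjusted p = 3.06e-06), and was at -0.35 ± 0.078 at day 0. Ccs, the copper chaperone of Sod1, fell by 0.30 ± 0.07 at day 1 and by 0.25 ± 0.076 at day 0. Sesn1, a sestrin, was higher at day 1 (0.51 ± 0.077) and lower at day 0 (-0.44 ± 0.083), and the difference passed (0.95 ± 0.11, adjusted p = 0.000365). Sesn2 rose on both days, by 0.30 ± 0.068 at day 1 and 0.26 ± 0.073 at day 0, Nox4 and Oxsr1 rose at day 1, and the metallothionein gene Mt2 fell at day 0. These lists were written with earlier results of the data known, and their counts were not tested against the shares of all genes.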

How the data were processed

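Total RNA of C2C12 cells was measured in 15 samples on 18 Illumina bead arrays. The deposited value table holds log2 values of 24538 probes that the authors normalised with lumi, per the submitters' processing notes. A second deposited table holds the authors' intensity values, not normalised, and detection p-values of 45281 probes. Its column names go with other arrays than the value table's for 12 of the 18, by matching ranks, so its intensities were used only as an alternative. Which assignment is right is not settled by the sources, and the value table's was taken as recorded. The second table's 18 columns of bead standard errors were not used.

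The 3 repeat arrays were averaged with their partners. Probes were kept if 3 or more arrays detected them at a p-value under 0.01 (18408 probes), and 15146 to 16802 probes were detected per array, which, with the number of samples, limits the precision. Of all probes, 20685 had 1 symbol, 8 several and 3845 none. All 4 groups entered 1 linear model in limma (version 3.58.1, under R 4.3.3), p-values were adjusted by Benjamini-Hochberg over all kept probes, and an adjusted p below 0.05 passed. Values after ± are standard errors beside fold changes and SDs beside means. The value 6.9 is the median of 842 probes detected on 8 to 10 arrays, and folds near it are understated. The fit was tested on simulated data. Per-sample values are given for each member that passed between STAC3 RNAi and control on either day or in the difference between the days. The members and lists were chosen with earlier results of these data known. Alternatives were other filters, probes, normalisations and array sets, a replicate block, fits on fewer groups and leaving out each sample. Same-numbered samples of control day 1 and control day 0 deviated together, with correlations of 0.131 to 0.226 in 3 of 3 pairs, so the fit with a replicate block is given beside that comparison. Those of control day 0 and STAC3 RNAi day 1, which were not compared, correlated at 0.102 to 0.168. Pairs of STAC3 RNAi and control samples of the same day varied more, from 0.075 to 0.492 at day 0 and from -0.054 to 0.392 at day 1. The counts with a replicate block are given for every comparison in the last section.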

Additional observations from a re-analysis of the deposited data

Results flagged for a closer look

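In 7 of 135 groups of 4 samples, 5.19%, 1 sample lay far from the others by Dixon's test, where chance gives about 1 in 20. STAC3 RNAi day 1 replicate 4 was such a sample for 3 genes. Sod1 had 12.28 there and 12.60 to 12.64 in the others of the group, Txnrd3 had 7.57 and 7.76 to 7.79, and Txnrd2 had 8.39 and 7.97 to 8.01. STAC3 RNAi day 0 replicate 4 was low for Prdx3, at 8.84 against 9.12 to 9.17, and for Srxn1, at 9.95 against 10.23 to 10.27. Control day 1 replicate 1 was low for Txnrd1, at 6.96 against 7.51 to 7.56, and control day 1 replicate 3 was high for Gpx4, at 13.69 against 13.56 to 13.57. The cause of these values was not tested.

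The effect of STAC3 RNAi differed between day 1 and day 0 by the limma test of the difference for Ugt1a10 (1.72 on the log2 scale), Mgst1 (1.49) and Gsto1 (0.57).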

How the results depend on the processing

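With 3 or 4 samples a group, calls near the threshold depended on single samples. The counts below are given without the shares of all genes under the same settings. Leaving out each sample in turn gave 18 to 27 members passing at day 1, 2 to 7 at day 0, 1 to 9 in the difference between the days, 19 to 26 between the days in STAC3 RNAi cells and 18 to 25 in control cells. The day 0 count was 2 without control day 0 replicate 3 and 7 without STAC3 RNAi day 1 replicate 4. The count in the difference was 1 without control day 0 replicate 2 or 3, STAC3 RNAi day 0 replicate 1, control day 1 replicate 2 or STAC3 RNAi day 1 replicate 2. Within the 6 arrays of lower median intensity (50.4 to 57.3, against 65.5 to 85.5), which leave 2 residual degrees of freedom, the counts were 6 at day 1, 0 at day 0, 0 in the difference, 10 in STAC3 RNAi cells and 7 in control cells. Within the other 12 arrays the difference had 1. With only the groups of the comparison, 13 passed at day 0 and 17 at day 1. From the non-normalised table with columns taken by name, 0 passed at day 1, at day 0, in the difference and in control cells, and 2 in STAC3 RNAi cells; 12 of its 18 names go with other arrays. Same-numbered samples correlated at -0.202 to 0.492, above 0.1 in 13 of 21 pairs. Every pair was above 0.1 between the control samples of both days. The same held between control day 0 and STAC3 RNAi day 1 (0.102 to 0.168), which were not compared. With a replicate block the counts were 22 at day 1, 4 at day 0, 4 in the difference, 24 in STAC3 RNAi cells and 24 in control cells. With the array set as a block they were 25 at day 1, with Gclm, Gsta3, Gstz1 and Sod1 added, 4 at day 0, 3 in the difference, 23 in STAC3 RNAi cells and 21 in control cells. Of the values tried for single members, 1117 kept direction and side of the threshold, 87 no longer passed, 10 newly passed and 28 changed sign. From the non-normalised table the sign changed at day 1 for Gpx4 (0.025), Gstm2 (0.069), Gsto2 (0.076), Gstp1 (0.059), Gstp3 (0.028) and Srxn1 (0.20), and in the difference for Gsto1 (-0.21). At day 0 it changed there for Gstk1 (-0.22), Gsto1 (0.34), Gstp3 (0.30), Gstt1 (-0.22), Gstt3 (-0.58), Mgst1 (-0.32), Mgst2 (-0.087), Prdx3 (0.26), Srxn1 (0.40), Ugt1a6a (-0.16) and Ugt1a6b (-0.18). The other changes of sign were all of day 0 effects that had not passed. They were Gpx3 with a replicate block (0.0016), within the 12 arrays (0.011) and without STAC3 RNAi day 0 replicate 1 (0.017) or 4 (0.02), and Gstt1 (-0.079) and Sod2 (0.12) within the 6 arrays. Gstt3 changed without STAC3 RNAi day 0 replicate 3 (-0.0054), and Mgst2 with a replicate block (-0.074) and without control day 0 replicate 4 (-0.11) or STAC3 RNAi day 0 replicate 1 (-0.027). Over all single samples left out, these day 0 values ran from -0.047 to 0.02 for Gpx3, from -0.0054 to 0.14 for Gstt3 and from -0.11 to 0.21 for Mgst2. The cause of these changes was not tested. Probes near 6.9 limit what can be said of Gclc, Gsta3, Gstm4, Gstm7, Gstp3 and Gstt1.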
